A study of Mus musculus with 3143 samples.

Results

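The genes described here are 10 cytokines and receptors of the interleukin-1, interleukin-6, tumour necrosis factor and CSF1 systems, measured in single cells of the glomerular fraction of mouse kidney. They were chosen by symbol (Il1b, Il1r1, Il6, Il6st, Tnf, Tnfrsf1a, Tnfrsf1b, Csf1, Csf1r and Il34) from the 46517 gene names of the count table, and all 10 were found there. Cells labelled IgAN came from adult C57BL/6 mice (1798 cells on 6 plates), and cells labelled Control came from adult C57BL/6 mice as well (1345 cells on 4 plates). IgAN stands for IgA nephropathy in the study's title, and the labels do not say how it was induced. In both groups the glomerular fraction was digested with collagenase IV, pronase E and DNase I, and cells positive for the viability dye CMFDA were sorted 1 per well and sequenced by Smart-seq2, a full-length method for polyadenylated RNA. No animal is named in the labels, which leaves each group as 1 sample: no test was run between them, and each difference is read against how far plates of a group differ. Because every plate held a single group, plate and group effects cannot be told apart.

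Interleukin-1 beta and TNF are inflammatory cytokines made mainly by myeloid cells; they act through IL1R1 and through the TNF receptors TNFR1 (Tnfrsf1a) and TNFR2 (Tnfrsf1b). Interleukin-6 signals through gp130, the shared receptor subunit encoded by Il6st. CSF1 and interleukin-34 are both ligands of CSF1R, the receptor that monocytes and macrophages need for survival and differentiation. In the glomerulus these systems link leukocytes with the resident endothelial, mesangial and epithelial cells.

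Promoter sequences of 4 of the ligands are shown, because they fall into a pair read mostly in phagocytes (Il1b and Tnf) and a pair read mostly in endothelial-like cells (Csf1 and Il6). Each runs 5′ to 3′ on the gene's own strand from 250 bases before to 50 bases after the RefSeq start site in GRCm38.p6. Capitals mark a match to the NF-kB consensus in Csf1 (on the opposite strand) and Il6 (on the printed strand). In Tnf they mark a match to the PU.1 core GAGGAA, on the opposite strand. The windows are chr3:107760420-107760719 (minus strand) for Csf1, chr5:30012864-30013163 (plus strand) for Il6, chr17:35201958-35202257 (minus strand) for Tnf and chr2:129371090-129371389 (minus strand) for Il1b.
Csf1: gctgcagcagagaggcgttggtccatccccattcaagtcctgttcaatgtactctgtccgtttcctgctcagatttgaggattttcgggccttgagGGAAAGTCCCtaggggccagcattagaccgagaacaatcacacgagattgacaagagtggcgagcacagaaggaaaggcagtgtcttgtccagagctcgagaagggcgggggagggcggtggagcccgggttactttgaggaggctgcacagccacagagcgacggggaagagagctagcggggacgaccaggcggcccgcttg
Il6: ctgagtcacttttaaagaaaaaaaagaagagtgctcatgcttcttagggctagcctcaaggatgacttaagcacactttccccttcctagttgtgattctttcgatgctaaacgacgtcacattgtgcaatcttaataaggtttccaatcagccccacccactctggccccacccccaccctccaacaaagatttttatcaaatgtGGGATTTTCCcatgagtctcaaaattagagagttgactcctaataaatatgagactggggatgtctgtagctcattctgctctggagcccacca
Tnf: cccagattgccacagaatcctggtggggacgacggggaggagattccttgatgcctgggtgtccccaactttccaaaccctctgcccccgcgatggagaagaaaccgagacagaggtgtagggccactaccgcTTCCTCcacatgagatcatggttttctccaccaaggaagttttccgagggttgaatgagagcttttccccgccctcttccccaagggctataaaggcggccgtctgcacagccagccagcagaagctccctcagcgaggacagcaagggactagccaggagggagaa
Il1b: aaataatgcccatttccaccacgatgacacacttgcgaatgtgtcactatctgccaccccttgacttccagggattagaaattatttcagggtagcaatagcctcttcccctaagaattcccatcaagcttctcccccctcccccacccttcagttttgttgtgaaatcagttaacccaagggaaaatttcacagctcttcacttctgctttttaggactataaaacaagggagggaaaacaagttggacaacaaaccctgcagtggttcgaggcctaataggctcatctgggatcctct
Promoters of 8 members were searched on both strands. Csf1r was left out of the search, and Il34 had no promoter entry, so the counts below say nothing of either gene. The NF-kB consensus was present in 3 of the 8 (Csf1, Il6 and the second of the Il1r1 start sites). It was present in 8.46% of 32817 mouse promoters of the same length. For each motif, that share counts every promoter alone, whereas a member counted when any of its start sites had a match. Il1r1 was searched at more than 1 start site, so the figures are not like for like. The PU.1 core was present in 2 of 8 members (Tnf and Tnfrsf1b), against 28.3% of all promoters. A C/EBP motif, TTNNGCAA, was present in 2 of 8 members (Il6 and Il1r1), against 10.8% of all, and an AP-1 motif, TGANTCA, in 1 of 8 (Il6), against 7.81%. The Il1b window held none of these 4 strings. A match is a description of letters and no evidence of binding.

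In GENCODE vM21 (GRCm38) the members lie apart on the genome. Il1b lies at chr2:129364570-129371139 and Tnf at chr17:35199381-35202007. Il6 lies at chr5:30013114-30019981, Csf1 at chr3:107741048-107760469 and Il34 at chr8:110741829-110805924. The receptors lie at chr1:40225080-40317257 (Il1r1), chr13:112464070-112510086 (Il6st), chr6:125349362-125362484 (Tnfrsf1a), chr4:145213463-145246870 (Tnfrsf1b) and chr18:61100598-61132149 (Csf1r). Exons of Il1b overlap the antisense gene Il1bos, those of Il34 overlap Gm15894 and Gm15895, and those of Csf1r overlap Hmgxb3, all on the opposite strand. Whether counting used strand is not given in the sources used here, so reads of these pairs cannot be told apart.

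The cells held 50365 to 1135415 reads in genes, with a median of 234207, and plate medians ran between 177508 and 396718 reads in IgAN and between 199126 and 268281 reads in Control. Clustering without the 10 genes and their pathway lists gave 23 clusters. Of these, 21 were named after 14 cell classes by marker genes, each written with "like" since RNA markers are its sole basis, and 2 clusters with 52 cells stayed unnamed. Endothelial-like cells were the largest class (997 IgAN and 614 Control cells), and its clusters were split by group: most IgAN cells fell in cluster 2 (352 cells), cluster 3 (308 cells) or cluster 11 (193 cells), whereas 415 Control cells fell in cluster 5. The classical monocyte-like cluster was also led by the dendritic cell genes Cd209a and Clec10a, and its name is less certain. Summed endothelial markers were higher in IgAN than in Control cells in 9 of the 12 classes other than endothelial- and neutrophil-like cells. Cells carrying markers of a second class numbered 165 in IgAN and 40 in Control. Only endothelial, podocyte, proximal tubule and mononuclear phagocyte markers were looked at as those of a second class. Levels are means of per-cell CPM, the reads of a gene scaled to 1000000 reads of the cell.

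One or a few reads of a gene were common in cells of classes not known to express it. Csf1r, for example, had a read in 53.1% of B or plasma cell-like cells (95% exact binomial interval 44.6 to 61.5%; 76 of 143), but reached 20 CPM in 5.59% of them (2.45 to 10.7%). In non-classical monocyte-like cells Csf1r reached 20 CPM in 97.5% (93.8 to 99.3%; 159 of 163). Cells are therefore counted from 20 CPM, a limit chosen after the values were seen. The binomial intervals cover counting error only. More cells passed that limit in other classes: of 1611 endothelial-like cells, Il1b reached 20 CPM in 134 and Csf1r in 113. On IgAN plates the endothelial-like share for Il1b ran between 0.437% (plate 313) and 21.3% (plate 318). Whether such cells express the gene was not tested, and this holds for Tnf and Il6 in endothelial-like cells too.

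**Figure D1:**
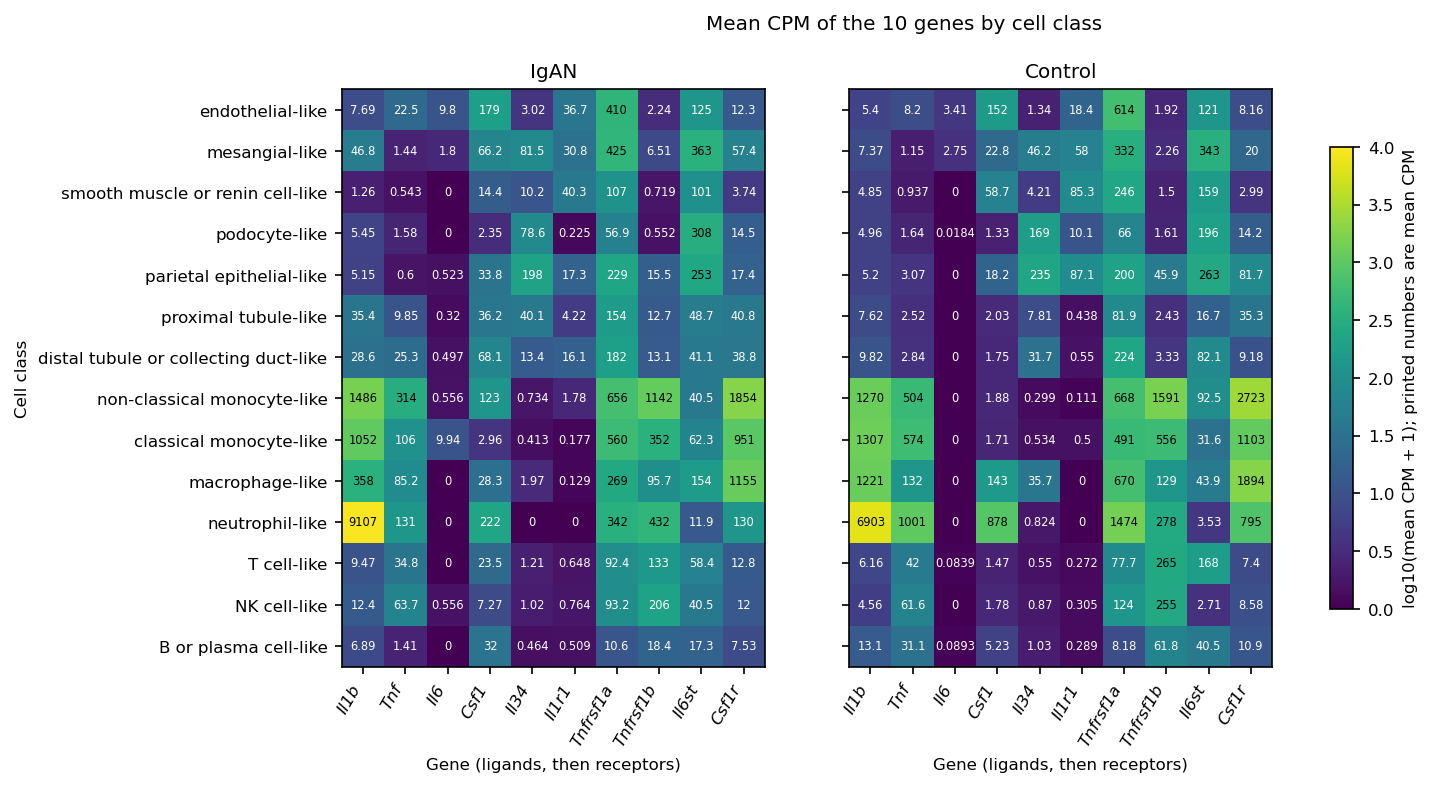
Mean CPM of the 5 ligand genes and 5 receptor genes (columns) in 14 cell classes (rows), IgAN on the left and Control on the right; the colour gives log10(mean CPM + 1) and each box prints the mean CPM. Il1b is brightest in the phagocyte rows of both groups (9107 CPM in IgAN and 6903 CPM in Control neutrophil-like cells), whereas Tnfrsf1a is spread over most rows.

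Il1b, which encodes interleukin-1 beta, was a gene of phagocytes in both groups. Neutrophil-like cells had 9107 CPM in IgAN (8 cells) and 6903 CPM in Control (12 cells). Non-classical monocyte-like cells, the patrolling type of monocyte, had 1486 CPM in IgAN (115 cells, median 849, highest 8764) and 1270 CPM in Control (48 cells, median 914, highest 5021). Their plate means were 442, 972, 1612, 1702 and 2362 CPM in IgAN, against 896, 943 and 2007 CPM in Control, so the groups overlapped. Classical monocyte-like cells had 1052 CPM in IgAN and 1307 CPM in Control, and macrophage-like cells had 358 CPM in 24 IgAN cells and 1221 CPM in 10 Control cells. The macrophage-like difference turned without plate 321 and its 4 Control cells, which left 191 CPM in Control, and 11 of the 24 IgAN cells carried markers of a second class (552 CPM in the others). Of all Il1b reads, 43.7% lay in the non-classical monocyte-like class, 29.2% in the classical monocyte-like class and 16.7% in the 20 neutrophil-like cells. Below the phagocytes the order ran on through mesangial-like (34.8 CPM) and proximal tubule-like cells (25.1 CPM), and plate ranges of neighbours in that order overlapped where both could be averaged by plate. Without the 10 cells of plate 322 the mesangial-like mean was 16.5 CPM, below that of proximal tubule-like cells.

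Tnf was read in the same phagocytes and in fewer of their cells. Non-classical monocyte-like cells had 314 CPM in IgAN and 504 CPM in Control, with 40 of 115 IgAN cells and 22 of 48 Control cells at 20 CPM or more. The plate means were 1.73, 122, 148, 282 and 751 CPM in IgAN, against 161, 483 and 628 CPM in Control. The spread within each group was wider than the difference between them. Classical monocyte-like cells had 106 CPM in IgAN and 574 CPM in Control, with plate means of 41.0 and 134 CPM in IgAN, against 40.7, 144 and 1164 CPM in Control; 1 Control plate set the higher mean. Neutrophil-like cells had 131 CPM in IgAN and 1001 CPM in Control, from 1 of 8 IgAN cells and 4 of 12 Control cells at 20 CPM or more, and without plate 321 the Control mean was 118 CPM. Outside the phagocytes, NK cell-like cells had 63.7 CPM in IgAN and 61.6 CPM in Control. Of the 62 non-classical monocyte-like cells with 20 CPM of Tnf, 51 also reached 20 CPM of Il1b (82.3% of the Tnf cells and 40.8% of the 125 Il1b cells), where 76.7% of the class did so.

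A small set of endothelial-like cells also held Tnf. It reached 20 CPM in 44 of 997 IgAN cells (4.41%, 3.22 to 5.88%) and in 12 of 614 Control cells (1.95%, 1.01 to 3.39%). The class mean was 22.5 CPM in IgAN and 8.20 CPM in Control, a log2 difference of 1.35, IgAN minus Control with 1 CPM added. Plate means were between 1.79 and 58.9 CPM in IgAN and between 1.91 and 13.5 CPM in Control, so the lowest IgAN plate lay below all 4 Control plates. That plate, 322, was the sole IgAN plate that overlapped with Control, and without it the class means were 26.9 CPM against 8.20 CPM. The separation of the remaining plates is fixed by leaving out the lowest plate and is no support for a difference. By cluster, Tnf had 46.8 CPM in the 193 IgAN cells of cluster 11, which was led by Rnd1, Cxcl1 and Sele and held 3 Control cells. Of its IgAN plates, the 3 with 10 cells or more had 2.97, 33.9 and 137 CPM, and 10 of the 193 IgAN cells reached 20 CPM, 6 of them on plate 325. In cluster 2 it had 27.8 CPM in 352 IgAN cells and 34.7 CPM in 64 Control cells. In cluster 4, held about equally by both groups, it had 7.62 CPM in 109 IgAN cells and 10.0 CPM in 111 Control cells. Without the clusters of which over 80% of cells came from 1 group, the log2 difference of Tnf turned to -0.34.

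Il6 was rare. Of 3143 cells, 91 had a read, 40 reached 20 CPM and 26 reached 100 CPM, with 1266 CPM in the highest cell. Endothelial-like cells made up 31 of those 40 and held 90.9% of the Il6 reads. Il6 reached 20 CPM in 25 of 997 IgAN cells (2.51%, 1.63 to 3.68%) and in 6 of 614 Control cells (0.977%, 0.359 to 2.11%), with class means of 9.80 CPM in IgAN and 3.41 CPM in Control. Plate means ran between 0 and 22.6 CPM in IgAN and between 0.288 and 9.02 CPM in Control, and overlapped. The other cells at 20 CPM were 4 IgAN classical monocyte-like cells, 2 mesangial-like cells and 1 parietal epithelial-like cell among the named classes. Of the 31 endothelial-like Il6 cells, 15 also reached 20 CPM of Csf1 (48.4%, where 37.1% of the class did so) and 1 reached 20 CPM of Tnf.

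Csf1, the main ligand of CSF1R, was read chiefly in endothelial-like cells, which held 85.4% of its reads. The class mean was 179 CPM in IgAN (median 6.84, highest 3044) and 152 CPM in Control (median 3.22, highest 2171). A share of 39.6% of IgAN cells (36.6 to 42.7%) and 33.1% of Control cells (29.3 to 36.9%) reached 20 CPM. Plate means were 103, 159, 170.4, 173, 207 and 251 CPM in IgAN, against 134, 142, 154 and 172 CPM in Control. The Control plates lay within the range of the IgAN plates. In cluster 4, Csf1 had 44.2 CPM in IgAN (plates 11.6 to 76.8 CPM) and 81.6 CPM in Control (plates 2.00 to 229 CPM), with 11.0% of IgAN cells and 10.8% of Control cells at 20 CPM. The log2 difference of 0.23 over the whole class turned to -0.86 without the clusters of which over 80% of cells came from 1 group. The 20 neutrophil-like cells had a higher mean than endothelial-like cells, 222 CPM in IgAN and 878 CPM in Control, from 2 and 5 cells at 20 CPM.

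**Figure D2:**
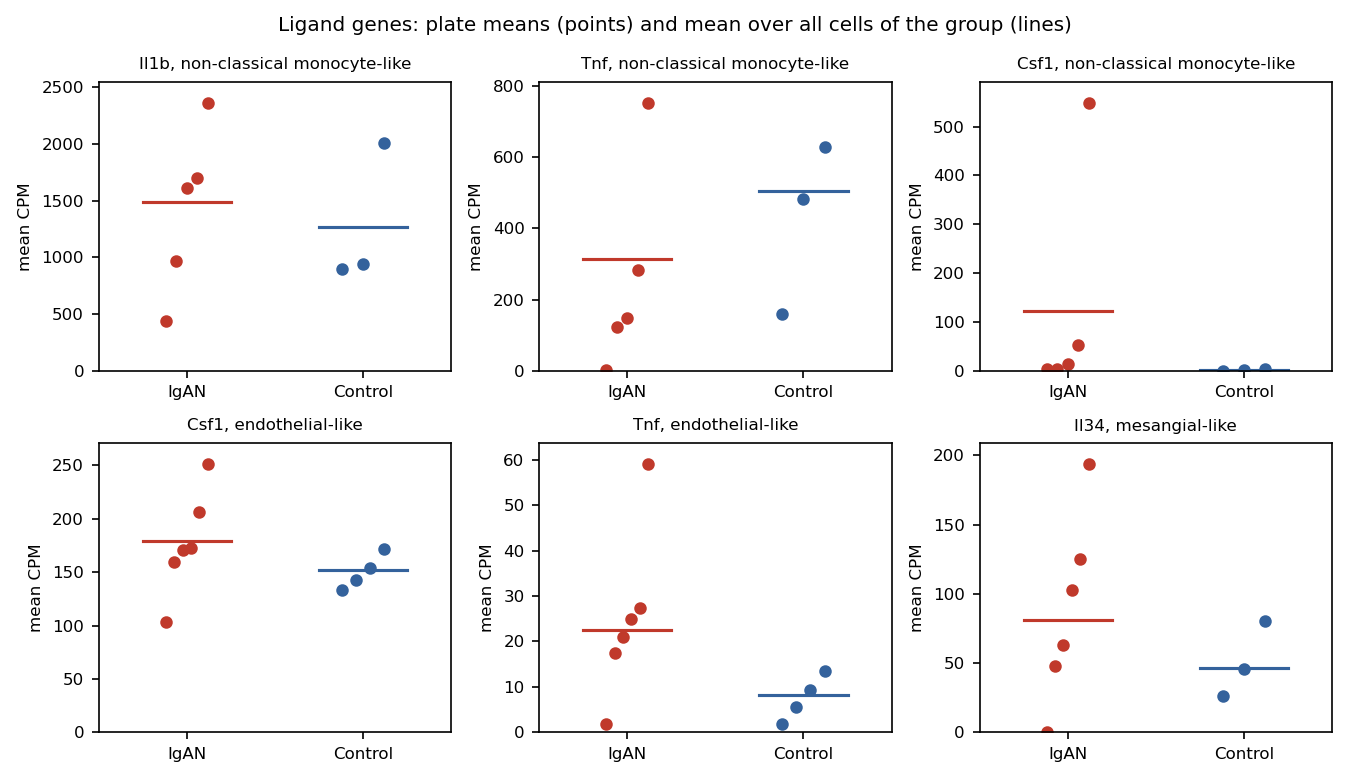
Plate means in CPM (points; plates with 10 or more cells of the class) and the mean over all cells of the group (lines) for 6 ligand gene and class pairs, IgAN left and Control right in each panel, each axis starting at 0. The groups overlap in all 6 panels, and a single IgAN plate at 548 CPM sets the mean of Csf1 in non-classical monocyte-like cells.

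In proximal tubule-like cells Csf1 had 36.2 CPM in IgAN (144 cells) and 2.03 CPM in Control (85 cells), a log2 difference of 3.62. The plate means were 5.90, 10.6, 29.9 and 78.7 CPM in IgAN, against 1.36, 1.54 and 3.69 CPM in Control, with no overlap. Endothelial markers moved with it: their sum was 3296 CPM in IgAN and 216 CPM in Control, and 48 of 144 IgAN cells but 0 of 85 Control cells carried markers of a second class. Over the 229 cells Csf1 and the endothelial marker sum had a Spearman correlation of 0.57. Without the cells carrying markers of a second class, Csf1 had 6.63 CPM in IgAN and 2.03 CPM in Control, a log2 difference of 1.33, and the plates overlapped.

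**Figure D3:**
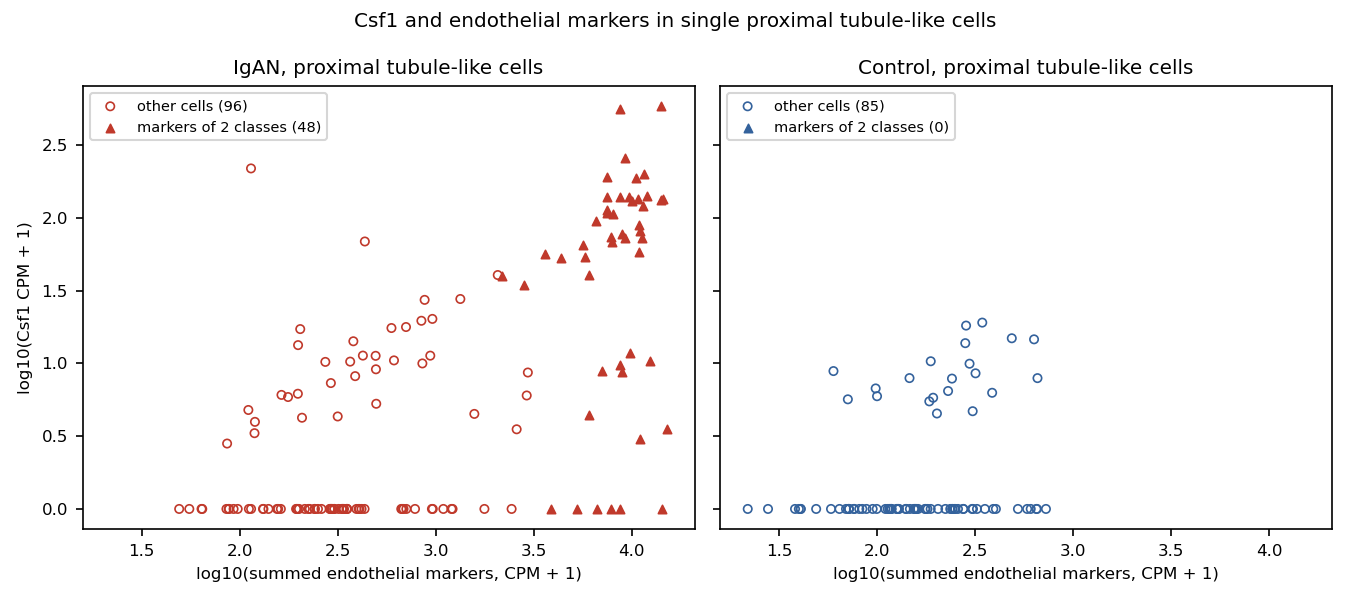
Single proximal tubule-like cells, IgAN left and Control right: summed endothelial markers (x axis, log10 of CPM + 1) against Csf1 (y axis, log10 of CPM + 1); filled triangles are cells carrying markers of a second class. The 48 filled IgAN cells lie at the right, where no Control cell lies, and most of the high Csf1 values are among them.

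Csf1 was also higher in IgAN non-classical monocyte-like cells, 123 CPM against 1.88 CPM in Control. The IgAN plate means were 3.04, 3.70, 13.6, 52.6 and 548 CPM, against 0.792, 2.56 and 3.25 CPM in Control. Plate 325 gave the high value, with 5 of its 22 cells at 100 CPM or more and 8519 CPM in the highest. The lowest IgAN plate lay below the highest Control plate, so the groups overlapped, and without plate 325 the IgAN mean was 22.0 CPM. Endothelial markers summed to 1343 CPM in IgAN and 483 CPM in Control in these cells. Without the 14 IgAN cells carrying markers of a second class, Csf1 had 105 CPM in IgAN and 572 CPM on plate 325. Mesangial-like cells on the same plate had 257 CPM of Csf1, and 16 of the 20 cells there carried markers of a second class; the other cells had a mean of 405 CPM. Across the 12 classes other than endothelial- and neutrophil-like cells, the Csf1 mean was higher in IgAN in 10. Neutrophil-like cells were lower in IgAN. The higher mean turned without plate 313 in parietal epithelial-like, 315 in classical monocyte-like and 322 in B or plasma cell-like cells. The lower mean turned without plate 317 in smooth muscle or renin cell-like and 314 in macrophage-like cells. The same count was not made for other genes, so it is no result about Csf1.

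Il34, the other ligand of CSF1R, was read in a different set of cells, the glomerular epithelial and mesangial classes. Parietal epithelial-like cells, the lining of Bowman's capsule, had 198 CPM in IgAN and 235 CPM in Control (196 CPM in Control without plate 317 and 168.5 CPM without plate 326). Podocyte-like cells, which form the filtration slits, had 78.6 CPM in IgAN (39 cells) and 169 CPM in Control (146 cells). The means of podocyte-like plates with 10 cells or more were 74.7 and 133 CPM in IgAN, against 165, 166, 166 and 183 CPM in Control. Both IgAN plates lay below all 4 Control plates, but a comparison by plates asked for 3 plates of each group. The share of all genes whose plates part in this class was not computed, so no difference is read from these plates. Il34 reached 20 CPM in 28.2% of IgAN podocyte-like cells (15.0 to 44.9%) and in 42.5% of Control cells (34.3 to 50.9%). Podocyte markers summed to 28248 CPM in IgAN and 30127 CPM in Control. No podocyte-like cell was marked as carrying endothelial, proximal tubule or phagocyte markers. Other markers, such as parietal epithelial ones, were not part of that check.

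In mesangial-like cells, which hold the capillary loops together, Il34 had 81.5 CPM in IgAN and 46.2 CPM in Control. Plate means ran between 0.580 and 193 CPM in IgAN and between 26.2 and 80.5 CPM in Control. Without cells carrying markers of a second class the means were 113 CPM in IgAN and 18.8 CPM in Control. The log2 difference was 2.53, and the plates that kept 10 cells did not overlap. That setting left 80 IgAN and 43 Control cells and allowed 2 plates a group in place of 3. The share of all genes meeting the rule under this filter was not computed, so no difference is read from it. That filter did not look at parietal epithelial markers, so no cell was removed for carrying them. Parietal epithelial markers, of the class with the most Il34, summed to 948 CPM in IgAN and 310 CPM in Control over all mesangial-like cells, and their part in the Il34 level was not tested. Proximal tubule-like cells had 40.1 CPM in IgAN and 7.81 CPM in Control, with overlapping plates. Il34 stayed at or under 3.02 CPM in endothelial-like cells and at or under 1.21 CPM in monocyte-like, T cell-like, NK cell-like and B or plasma cell-like cells of both groups. Over both groups, per kilobase of exon, the podocyte-like level of Il34 was 76.4 CPM and that of Csf1 was 0.292 CPM; in endothelial-like cells Il34 had 1.21 CPM and Csf1 had 32.0 CPM per kilobase.

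Csf1r, the receptor of both ligands, was a phagocyte gene. Non-classical monocyte-like cells had 1854 CPM in IgAN (median 1679, highest 5114) and 2723 CPM in Control (median 2570, highest 5913). The plate means were 1104, 1643, 2080, 2088 and 2550 CPM in IgAN, against 2530, 2614 and 2686 CPM in Control, so 4 of 5 IgAN plates lay below every Control plate and 1 lay among them. Without the 14 IgAN cells carrying markers of a second class, the IgAN mean was 1987 CPM. Macrophage-like cells had 1155 CPM in IgAN and 1894 CPM in Control, classical monocyte-like cells had 951 CPM in IgAN and 1103 CPM in Control (935 CPM in Control without plate 321), and neutrophil-like cells had 130 CPM in IgAN and 795 CPM in Control. Non-classical monocyte-, classical monocyte- and macrophage-like cells held 59.3%, 22.4% and 8.9% of all Csf1r reads. Outside the phagocytes the class means over both groups were at or under 46.1 CPM.

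Tnfrsf1a and Tnfrsf1b, the TNF receptors, were both highest in the phagocyte classes and parted outside them. Tnfrsf1a was broad: over both groups it had 1021 CPM in neutrophil-like, 659.5 CPM in non-classical monocyte-like, 526 CPM in classical monocyte-like, 488 CPM in endothelial-like and 397 CPM in mesangial-like cells, and plate ranges of neighbours in that order overlapped where both could be averaged by plate. B or plasma cell-like cells were lowest, with 10.6 CPM in IgAN and 8.18 CPM in Control, and their Control plates (6.27 to 9.97 CPM) lay below those of the next class, podocyte-like cells (20.0 to 121 CPM). Tnfrsf1b was read mainly in leukocyte classes, with 1274 CPM in non-classical monocyte-like, 453 CPM in classical monocyte-like and 339.7 CPM in neutrophil-like cells over both groups. By group, it had 1142 CPM in IgAN and 1591 CPM in Control non-classical monocyte-like cells, with plate means of 378, 1095, 1205, 1324 and 1680 CPM in IgAN, against 1147, 1608 and 1974 CPM in Control, which overlapped. NK cell-like cells had 206 CPM in IgAN and 255 CPM in Control (144 CPM in Control without plate 321), and T cell-like cells had 133 CPM in IgAN and 265 CPM in Control. The highest class outside the leukocytes was the parietal epithelial-like one, with 15.5 CPM in IgAN and 45.9 CPM in Control (7.62 CPM in Control without plate 317, which held 2 of its cells). In endothelial-like cells Tnfrsf1a had 188 CPM per kilobase of exon and Tnfrsf1b had 0.554 CPM per kilobase.

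Tnfrsf1a was lower in IgAN endothelial-like cells. The mean was 410 CPM in IgAN (median 272, highest 2733) and 614 CPM in Control (median 542, highest 5091), a log2 difference of -0.58. Plate means were 327, 383, 400, 427, 431 and 435 CPM in IgAN, against 579, 598, 635 and 681 CPM in Control, with no overlap between the groups. Of 9703 genes measured in these cells, 2.24% lay lower in IgAN with plates that did not overlap. The difference was under the 2-fold limit of the size rule. In cluster 2 Tnfrsf1a had 477 CPM in IgAN and 648 CPM in Control, with plate means between 425 and 628 CPM in IgAN and between 602 and 687 CPM in Control. In cluster 4 it had 342 CPM in IgAN and 457 CPM in Control, with plate means between 294 and 456 CPM in IgAN and between 428 and 481 CPM in Control. Without the clusters of which over 80% of cells came from 1 group, the log2 difference was -0.52 and the plates overlapped. In mesangial-like cells Tnfrsf1a had 425 CPM in IgAN and 332 CPM in Control, with overlapping plates.

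**Figure D4:**
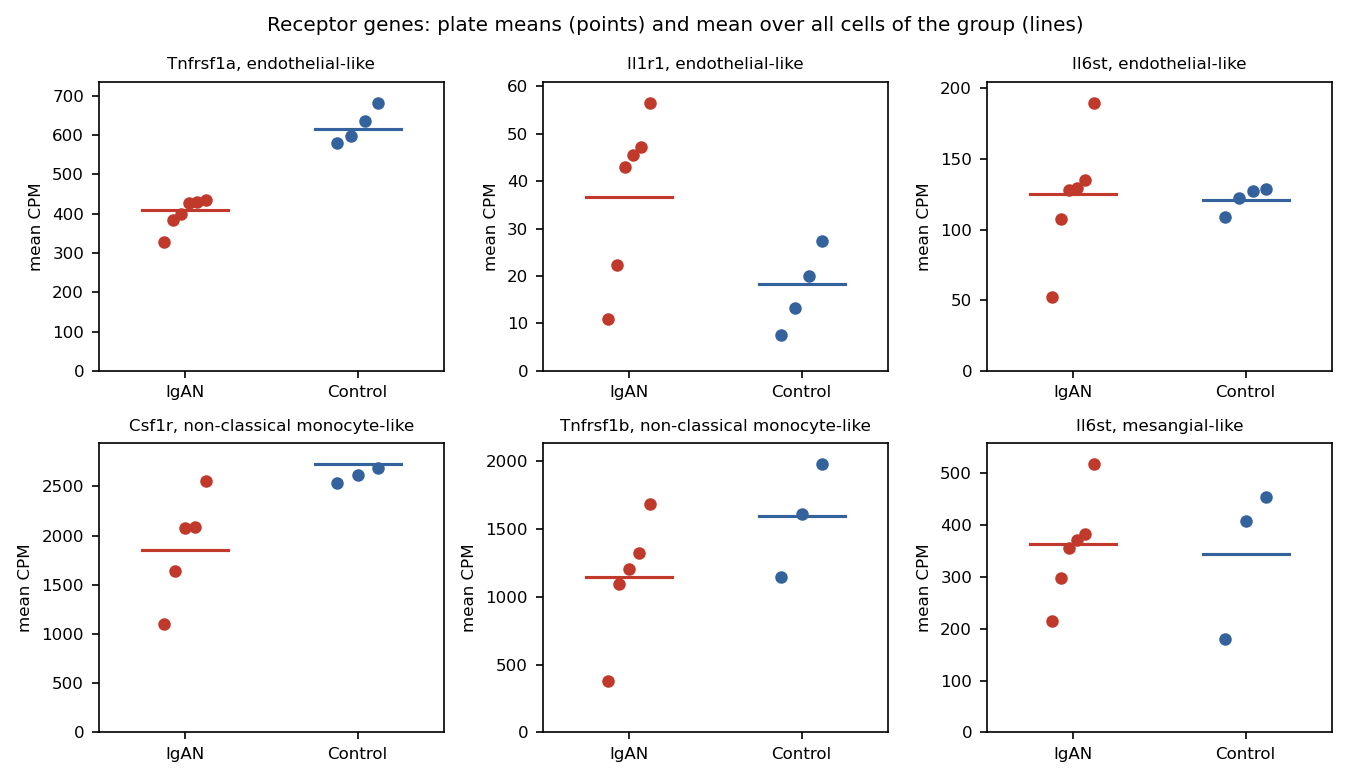
Plate means in CPM (points; plates with 10 or more cells of the class) and the mean over all cells of the group (lines) for 6 receptor gene and class pairs, IgAN left and Control right in each panel, each axis starting at 0. Tnfrsf1a in endothelial-like cells is the panel in which no IgAN plate (327 to 435 CPM) reaches a Control plate (579 to 681 CPM); a line above its points includes cells of plates with fewer than 10 cells.

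Il1r1, the signalling receptor of interleukin-1, was read in resident cells and not in the phagocytes that held Il1b. Endothelial-like cells had 36.7 CPM in IgAN and 18.4 CPM in Control, with 130 of 997 IgAN cells and 47 of 614 Control cells at 20 CPM. The plates overlapped, between 10.9 and 56.5 CPM in IgAN and between 7.52 and 27.5 CPM in Control. In cluster 2 Il1r1 had 52.6 CPM in IgAN (5 plates, 39.4 to 69.96 CPM) and 15.0 CPM in Control (2 plates, 16.1 and 17.6 CPM). These plates did not overlap, but a comparison by plates asked for 3 plates of each group. The share of all genes whose plates part in this cluster was not computed, so no difference is read from it. In cluster 4 it had 25.6 CPM in IgAN and 16.5 CPM in Control, with overlapping plates. In mesangial-like cells it had 30.8 CPM in IgAN and 58.0 CPM in Control; 3 of the 6 IgAN plates were under 3 CPM, the other 3 lay between 30.1 and 62.5 CPM, and the Control plates lay between 47.6 and 80.3 CPM. Parietal epithelial-like cells had 17.3 CPM in 49 IgAN cells and 87.1 CPM in 25 Control cells. The class with the highest mean over both groups, smooth muscle or renin cell-like cells, had 40.3 CPM in 21 IgAN cells and 85.3 CPM in 11 Control cells. All of the Control value came from the 6 cells of plate 317; without that plate Control was at 0 CPM, and the mean over both groups, 32.5 CPM, was no longer the highest. Of the monocyte-, macrophage- and neutrophil-like classes, the highest Il1r1 mean was 1.78 CPM, in IgAN non-classical monocyte-like cells, and no read was found in the 8 IgAN and 12 Control neutrophil-like cells, which allows up to 2.61 CPM in IgAN and 1.90 CPM in Control.

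Il6st, the gp130 subunit, was read in most classes. Mesangial-like cells were highest, with 363 CPM in IgAN (plates 215 to 517 CPM) and 343 CPM in Control (plates 181 to 455 CPM). Podocyte-like cells had 308 CPM in IgAN and 196 CPM in Control, parietal epithelial-like cells 253 CPM in IgAN and 263 CPM in Control, and endothelial-like cells 125 CPM in IgAN and 121 CPM in Control. The plates overlapped in the mesangial- and endothelial-like classes. Of the podocyte-like IgAN plates, the 2 with 10 cells or more had 298 and 574 CPM, against 132 to 278 CPM on the 4 Control plates, but smaller IgAN plates had as little as 59.5 CPM (6 cells) and 63.4 CPM (2 cells). The share of all genes whose plates part in podocyte-like cells was not computed. T cell-like cells had 58.4 CPM in IgAN and 168 CPM in Control. In non-classical monocyte-like cells Il6st had 40.5 CPM in IgAN and 92.5 CPM in Control, with overlapping plates. Plate ranges of neighbouring classes overlapped along the whole order from mesangial- to endothelial-like cells.

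The size rule asked for a difference of at least 2-fold and no overlap between plates, among genes at 10 CPM or more with a read in 10% of cells of 1 group. It could be applied in 4 classes (endothelial-, mesangial-, proximal tubule- and non-classical monocyte-like), which had 10 cells on at least 3 plates of each group. Of 27 measured member and class pairs, 1 met it, Csf1 in proximal tubule-like cells. Csf1 was under 10 CPM in Control there, so the pair was measured through its IgAN level alone. In that class 6.56% of 10217 measured genes were higher and 2.15% were lower in IgAN by the same rule, and the median log2 difference of all genes was 0.29. Of the genes meeting the rule there, 75.3% were higher in IgAN, against 63.4% when scaled by TMM factors and 54.1% when scaled by the median of ratios; in non-classical monocyte-like cells the share was 62.7%, against 52.2% with the median of ratios. No member met it in endothelial-like cells (0.752% of genes higher and 0.824% lower), in mesangial-like cells (1.44% higher and 1.36% lower) or in non-classical monocyte-like cells (2.76% higher and 1.64% lower). The count of member and class pairs meeting the rule was 5 (4 members) without plate 316, 3 (2 members) without plate 326 and 2 without each of plates 313, 314, 317, 318 and 322, where 2 plates a group were allowed.

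Of the other genes in the lists of the 4 systems (83 list entries, members included), none met the rule in endothelial-like cells. The most abundant of them there was Socs3, a feedback inhibitor of gp130 signalling, with 1148 CPM in IgAN and 1327 CPM in Control. Lifr, the receptor for leukaemia inhibitory factor, had 491 CPM in IgAN and 402 CPM in Control, and Ltbr, the lymphotoxin beta receptor, had 179.6 CPM in IgAN and 244 CPM in Control. The median log2 difference was -0.07 over 10 IL-1 genes, 0.06 over 12 IL-6 genes, -0.05 over 19 TNF genes and 0.32 over 7 colony-stimulating factor genes, against -0.0033 over all genes measured.

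In mesangial-like cells, 1 of 49 measured list genes was higher in IgAN by the rule and 1 was lower. Of all 10299 genes measured there, 1.44% were higher and 1.36% lower. The higher gene was 1 of 13 measured on the IL-6 list, and the lower was 1 of 8 on the colony-stimulating factor list. A count of 1 is no result about either list. Il6ra, the interleukin-6 binding receptor subunit, had 88.0 CPM in IgAN (plates 51.3 to 155 CPM) and 10.2 CPM in Control (plates 1.16 to 16.9 CPM). Sdc1, the cell surface proteoglycan syndecan-1, had 129 CPM in IgAN (plates 32.4 to 202 CPM) and 350.1 CPM in Control (plates 277 to 403 CPM). Osmr, the oncostatin M receptor, was the most abundant IL-6 list gene, with 599.7 CPM in IgAN and 375 CPM in Control and overlapping plates. The parietal epithelial marker sums of 948 CPM in IgAN and 310 CPM in Control hold for these cells too, and 37 of 117 IgAN cells and 8 of 51 Control cells carried markers of a second class; their part in these values was not tested.

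In proximal tubule-like cells 8 of 49 measured list genes, Csf1 among them, were higher in IgAN by the rule and none was lower. Of all genes measured, 6.56% were higher and 2.15% lower. Among the 8, Lifr alone reached 10 CPM in Control, so the others were measured through their IgAN level alone. The 1-sided count is therefore no support for a change in these systems. Birc2 and Birc3, inhibitors of apoptosis that bind TNF receptor complexes, had 46.4 CPM and 47.3 CPM in IgAN, against 1.34 CPM and 1.85 CPM in Control. Tradd, the adaptor of TNFR1, had 35.5 CPM in IgAN and 4.92 CPM in Control, and Lifr had 139 CPM in IgAN and 47.6 CPM in Control. Tnfsf10, the ligand TRAIL, had 49.3 CPM in IgAN and 0.948 CPM in Control. Tnfrsf12a, the TWEAK receptor, had 67.8 CPM in IgAN and 5.65 CPM in Control, and Grb2, a signalling adaptor, had 28.6 CPM in IgAN and 6.61 CPM in Control. The endothelial marker sums of 3296 CPM in IgAN and 216 CPM in Control hold for these cells too. In non-classical monocyte-like cells 3 of 60 measured list genes were higher and none lower, where 2.76% of all genes were higher and 1.64% lower, and endothelial markers summed to 1343 CPM in IgAN and 483 CPM in Control. Jak2, a kinase that binds gp130, had 99.1 CPM in IgAN and 13.2 CPM in Control. Birc2 had 40.3 CPM in IgAN and 10.3 CPM in Control. The third was Osmr, with 34.7 CPM in IgAN and 0.950 CPM in Control, measured through its IgAN level alone.

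The profile of a member's levels over the 14 classes, as the average of the IgAN and Control means, was compared with 13097 genes by Pearson correlation of log2(CPM + 1), as a description. Il1b was most like Ptafr (0.99), Clec7a (0.99) and Lst1 (0.99), and Tnf was most like Man2b1 (0.95), 4632428N05Rik (0.95) and Ptpre (0.95). Csf1r was most like Mpeg1 (0.97), Cd300ld (0.96) and Lyz2 (0.96), and Tnfrsf1b was most like Gm29094 (0.94), Itgb2 (0.93) and Apbb1ip (0.93). Il34 was most like 4833422C13Rik (0.98), Gsta4 (0.96) and Ajuba (0.94), and Il1r1 was most like Mill2 (0.97), Zfp111 (0.94) and Rai14 (0.93). Il6st was most like Tns3 (0.95), Bmi1 (0.93) and Mnat1 (0.92). The likeness was lower for Tnfrsf1a (Ifih1 0.89, Gng5 0.88 and Mef2a 0.86) and for Csf1 (Rsrc2 0.82, Ltf 0.80 and Map1lc3b 0.79). Il6 was under 10 CPM in every class and was left out.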

How the data were processed

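The deposited table holds counts: whole numbers of reads per gene and cell, which the authors did not normalise. Per the submitters' processing notes, the tools were featureCounts, Subread 1.4.6-p5, TopHat2 2.1.1 and SAMtools 0.1.18, with the build GRCm38 (mm10); for the annotation and strand setting, nothing is given in the sources used here. Smart-seq2 carries no molecular identifiers, so exact binomial intervals (95%) cover counting error only, and a count of 0 allows up to 3 reads. No doublet caller was run. Cells of another class were marked instead when summed endothelial, podocyte, proximal tubule or mononuclear phagocyte markers exceeded 25% of the median in the class of those markers. Markers of other classes, such as parietal epithelial or mesangial ones, were not used for this. Leiden clusters (scanpy 1.11.5, resolution 1, 15 neighbours) came from 30 principal components of 2000 variable genes, on log values of reads scaled to 100000 per cell. A cluster was named by the markers with the highest mean log2 fold, 10 CPM added, with at least 3 markers found in 25% of its cells. Differences are log2(mean CPM + 1), IgAN minus Control. The named list genes either met the size rule in a class or were among the 4 most abundant measured genes of a list, of which only some are printed. The 3 genes most like each member were named as well. The members, lists, markers and rules were chosen with earlier results of these data known. The size rule was also run on simulated counts with known folds. These had the same number of cells on every plate and a chosen spread between plates. They do not show how the rule acts on the plates of these data. Alternatives changed the added value, the filters, the fold limit, the scaling (edgeR TMM factors, median of ratios), the plates, the cells and the cluster resolution. Promoters are those of RefSeq (GRCm38.p6).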

Additional observations from a re-analysis of the deposited data

Results flagged for a closer look

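The sets of plates examined numbered 38 (a member in 1 class and group, with 4 to 6 plates and at least 1 plate at 10 CPM). Of these, 6 held a plate farther from the others than Dixon's limit allows. That limit assumes normally distributed values, which was not tested for these plate means. Il34 in endothelial-like cells and Il1r1 in proximal tubule-like cells reached 10 CPM only on the flagged plate. The count of 6 is therefore not set against a chance rate. Of the 38 sets, 33 were IgAN and 5 were Control, since Control had at most 4 plates in a class; all 6 plates are IgAN, and 3 are plate 325.

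Csf1 in non-classical monocyte-like cells stood at 548.5 CPM on plate 325, against 52.6 CPM on the next plate, and the IgAN mean without it was 22.0 CPM, against 1.88 CPM in Control. In mesangial-like cells Csf1 was 257 CPM on plate 325, against 54.2 CPM on the next plate, and the IgAN mean without it was 26.9 CPM, against 22.8 CPM in Control. Il34 in endothelial-like cells was 25.15 CPM on plate 325, against 1.11 CPM on the next, from 3 cells at 100 CPM or more among 98.

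Il1b in mesangial-like cells was 324.6 CPM on plate 322, where 2 of 10 cells reached 100 CPM and the highest had 3020 CPM. Without its 5 cells carrying markers of a second class the plate mean was 605 CPM. Without that plate the IgAN mean was 20.8 CPM, against 7.37 CPM in Control. On plate 315, Tnfrsf1b in mesangial-like cells was 39.1 CPM, and 1.64 CPM without cells carrying markers of a second class. Il1r1 in proximal tubule-like cells was 10.72 CPM on plate 315, and 0.598 CPM without such cells.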

How the results depend on the processing

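The number of member and class pairs meeting the size rule was 1. It came to 0 with a 50 CPM filter, 4 with reads summed over cells (3 members), 2 in cells with 100000 reads and 2 at resolution 0.5 (both Csf1), and ran between 1 and 5 without 1 plate at a time. Pairs of another list gene and a class meeting the rule numbered 12, came to 5 with a 50 CPM filter and to 5 with plates of 5 cells, and ran between 12 and 22 without 1 plate at a time (19 without plate 314, 22 without plate 316 and 21 without plate 326). Settings that left out cells or plates allowed 2 plates a group in place of 3, which lets more genes meet the rule. Csf1 in proximal tubule-like cells met the rule with 5 CPM added, with no low filter, with summed reads, with both other scalings, at both other resolutions and without each plate in turn (log2 2.70 to 3.95). It did not meet it with the 50 CPM filter, in cells with 100000 reads (log2 3.88, plates overlapping) or without cells carrying markers of a second class (log2 1.33, plates overlapping), where Il34 in mesangial-like cells met it. Tnfrsf1a in endothelial-like cells stayed lower in IgAN under the alternatives run (log2 -0.64 to -0.48; -0.62 to -0.55 without 1 plate at a time), but its plates overlapped without the clusters of mainly 1 group, a choice made after the values were seen. Its difference in proximal tubule-like cells, 0.90, was -0.62 without cells carrying markers of a second class. The scalings moved the median of all genes in proximal tubule-like cells to -0.0052 (TMM) and -0.086 (median of ratios), against 0.29 unscaled, in mesangial-like cells to -0.19 and -0.098, against 0.024, and in non-classical monocyte-like cells to -0.021 and -0.13, against 0.086. The causes were not tested. Member and class pairs at 100 CPM numbered 39, and 34 to 40 under the alternatives. No paired analysis was possible because the labels give cells no replicate number shared between groups. Few cells limit classes such as the neutrophil-like one (20 cells), and each group is 1 sample.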
